A study of Homo sapiens with 12 samples.

Results

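The genes described here are 10 members of the machinery that detects nucleic acids inside the cell and turns detection into interferon transcription: the sensors IFIH1, DHX58, TLR3 and CGAS, the adaptors MAVS and STING1, and the interferon regulatory factors (IRFs) IRF1, IRF3, IRF7 and IRF9. They were taken from a list of names, matched to the Ensembl identifiers of the count tables through GENCODE v44. They are 10 of 63677 identifiers counted. All 10 were among the 17123 genes that passed the filter on low counts.

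Double-stranded RNA in the cytosol is bound by helicases of the RIG-I family, which signal through the mitochondrial protein MAVS, and double-stranded RNA in endosomes is bound by TLR3. Double-stranded DNA in the cytosol is bound by CGAS, whose cyclic dinucleotide product activates STING1. Both routes end in kinases that phosphorylate IRF3 and IRF7, which enter the nucleus and start transcription of type I interferons, and secreted interferon then acts on neighbouring cells through STAT proteins and IRF9. Inhibitors of DNA methylation are known to raise transcripts of silenced endogenous retroviruses, whose double-stranded RNA is a ligand of the same sensors, an effect called viral mimicry.

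The cells were MiaPaca2, an established line of human pancreatic ductal adenocarcinoma (PDAC), wild type in its label. They were treated for 24 hours in 4 groups of 3 libraries: DMSO alone (Con), 1 µM CPT, 2 mM GTA with 1 µM 5-Aza (GTA+5-Aza), or all 3 agents at the same doses (CPT+GTA+5-Aza). CPT is calcipotriol, a Vitamin D analogue; GTA is glyceryl triacetate, a source of acetate for histone acetylation; 5-Aza is 5-Aza-2′-deoxycytidine, an inhibitor of DNA methylation. GTA and 5-Aza together are the epigenetic priming, so Con and CPT cells are called unprimed and the other groups primed. GTA and 5-Aza were never given singly in these libraries, so their parts cannot be told apart. The study's methods call the samples of an experiment independent, but neither they nor the labels say whether the replicates of a group were separate cultures, so p-values measure only the spread between these samples.

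Depth ran from 16162490 to 21224665 counts per library, and the value of 3 counts, which is the most that a count of 0 allows, was 0.143 to 0.184 CPM (counts scaled to a common library total). These limits cover counting error only. The 3 CPT libraries were the least alike, with a mean root mean square distance to their own group of 0.168 to 0.216 against 0.116 to 0.15 in the other groups. Of the markers checked for the line, KRT8, KRT18 and VIM were abundant, and EPCAM and CDH1 were at or near 0 (at most 1 and 4 counts in a library). KRT19 and the ductal SOX9 had group means of 29.4 to 39.2 and 154 to 224 CPM, and the acinar PRSS1 and CPA1 were listed at 0. Of 5 immune markers, CD14 had up to 30 counts in a library (group means of 0.544 to 0.757 CPM). LYZ had up to 10, CD68 up to 6 and PTPRC up to 4, and CD3E was listed at 0. Of 4 fibroblast markers, COL1A2 was abundant in every group (728.9 to 896.6 CPM, group means), LUM was listed at 0 in every library, and DCN had group means of 0 to 0.0499 CPM. COL1A1 rose with priming from 0.135 ± 0.0819 to 1.7 ± 0.509 CPM (SD, n = 3, Con and GTA+5-Aza), and the mesenchymal VIM fell from 6202 ± 62.1 to 5438 ± 201 CPM. Both were called for priming averaged over CPT (log2 fold changes of 3.54 and -0.18, edgeR adjusted p = 2.87e-06 and 7.4e-06), as was COL1A2 (0.17, adjusted p = 0.000628). Also called higher by edgeR were SOX9 (0.46, adjusted p = 2.71e-09), KRT19 (0.27, adjusted p = 0.0025), KRT18 (0.17, adjusted p = 0.00374) and KRT8 (0.11, adjusted p = 0.0327). CD14 was not called (0.45, adjusted p = 0.537). The endothelial PECAM1 and CDH5 were listed at 0 in every library and VWF had at most 11 counts. The part of these markers in the results was not tested.

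Promoter sequences were read for the members that the RefSeq table (GRCh38.p14) holds, which are IFIH1, TLR3, MAVS, IRF1 and IRF9. DHX58, CGAS, STING1, IRF3 and IRF7 were not matched. Each window runs from 250 bases before to 50 bases after the gene's start in that table. This start can differ from the GENCODE span given for each gene below, and the IRF1 window lies within that span. The windows were searched on both strands for GAAANNGAA, a part of the interferon-stimulated response element that IRFs bind, and for TTCNNNGAA, the site of STAT dimers. Of 35116 promoters of this length, 8.11% held the first and 7.66% the second. Shown here are the windows of IFIH1 and IRF1, whose transcripts rose with priming, and of TLR3, whose change did not pass the test and whose window holds both motifs. The window of IFIH1 is chr2:162318635-162318934 (minus strand), that of IRF1 is chr5:132490724-132491023 (minus strand), and that of TLR3 is chr4:186068906-186069205 (plus strand). Letters are 5′ to 3′ on the gene's strand, and capitals mark matches to either motif.
IFIH1: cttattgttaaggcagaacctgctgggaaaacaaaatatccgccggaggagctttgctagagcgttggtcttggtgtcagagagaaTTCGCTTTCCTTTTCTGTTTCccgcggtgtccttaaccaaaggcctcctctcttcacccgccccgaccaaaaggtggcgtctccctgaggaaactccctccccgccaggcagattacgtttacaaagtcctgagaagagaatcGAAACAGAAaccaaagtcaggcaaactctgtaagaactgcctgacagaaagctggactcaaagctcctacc
IRF1: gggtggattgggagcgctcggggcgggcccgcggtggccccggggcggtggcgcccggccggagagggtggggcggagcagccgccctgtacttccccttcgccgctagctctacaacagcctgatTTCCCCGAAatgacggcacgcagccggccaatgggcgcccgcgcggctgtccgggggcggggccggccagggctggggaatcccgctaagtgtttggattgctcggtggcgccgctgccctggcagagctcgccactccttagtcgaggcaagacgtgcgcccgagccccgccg
TLR3: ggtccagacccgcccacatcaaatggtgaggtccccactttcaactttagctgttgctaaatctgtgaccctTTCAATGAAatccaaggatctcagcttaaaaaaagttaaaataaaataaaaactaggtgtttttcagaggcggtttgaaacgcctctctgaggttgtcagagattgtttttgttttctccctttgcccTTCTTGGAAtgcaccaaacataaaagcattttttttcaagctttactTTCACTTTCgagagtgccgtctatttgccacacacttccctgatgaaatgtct

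The IFIH1 window held 4 matches to GAAANNGAA. Of these, 3 lie on the opposite strand, starting 164, 158 and 152 bases before the start, with neighbouring matches overlapping. The other match lies 21 bases before the start. The IRF1 window held 1 match to TTCNNNGAA, 124 bases before the start, and none to GAAANNGAA. The TLR3 window held 1 match to GAAANNGAA, 3 bases before the start, and 2 to TTCNNNGAA. The IRF9 window (chr14:24161015-24161314, plus strand) held 1 match to TTCNNNGAA, and that of MAVS (chr20:3846584-3846883, plus strand) held neither. CG dinucleotides, the substrate of DNA methylation, numbered 36 in the IRF1 window, 34 in MAVS, 12 in IFIH1, 7 in IRF9 and 5 in TLR3, against a median of 14 over all promoters. So both IRF1, which rose, and MAVS, whose change did not pass the test, had CG-rich windows. A match is a description of letters and was not tested for binding, and methylation was not measured in these libraries.

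The members spanned a wide range of levels. In CPM per kilobase of exon, averaged over the 12 libraries, IRF3 was highest at 21.6 ± 3.65 (SD), followed by CGAS at 11.9 ± 1.21 and MAVS at 8.75 ± 0.513. IRF7 (1.37 ± 0.547), IRF1 (1.20 ± 0.310), DHX58 (0.812 ± 0.169) and STING1 (0.581 ± 0.293) formed a middle group in which each gene's range of mean ± SD overlapped that of its neighbour. IFIH1 (0.183 ± 0.0982) and IRF9 (0.166 ± 0.0789) also overlapped, and TLR3 was lowest at 0.0526 ± 0.0267. The factor IRF3 and the sensor CGAS were thus well transcribed in this line, while the RNA sensors IFIH1 and TLR3 were read at 5 to 31 and 3 to 14 counts per library. The exon length of IRF1 (12265 bases) includes long annotated transcripts, which lowers its value per kilobase. The order within the middle group differed between conditions: in Con, IRF7 (1.94 ± 0.379) stood above IRF1 (0.902 ± 0.128), and in GTA+5-Aza, IRF1 (1.46 ± 0.200) had the higher mean, with IRF7 at 1.01 ± 0.478.

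**Figure D1:**
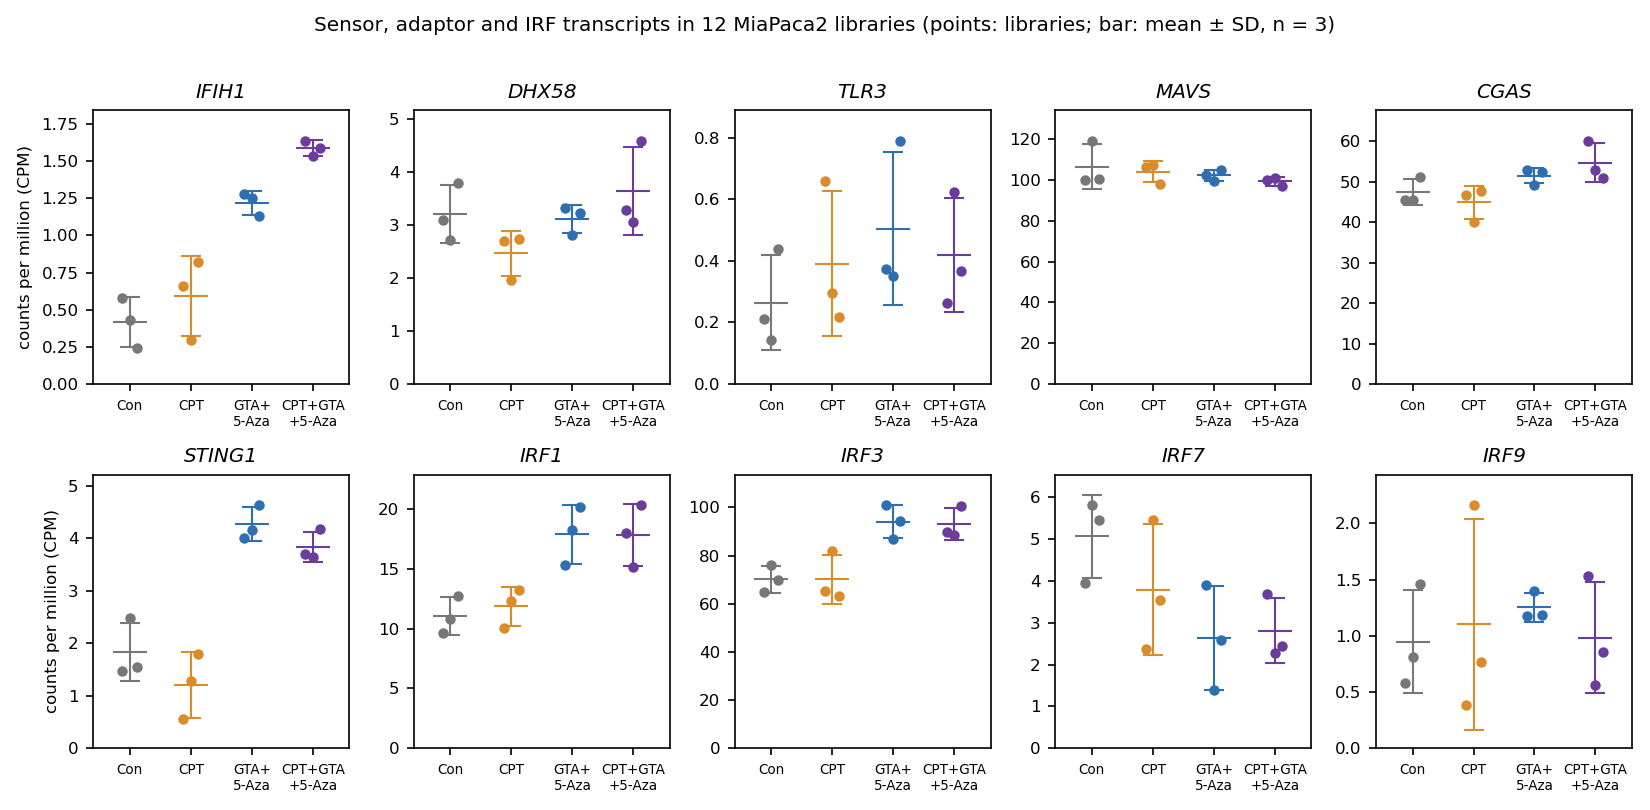
CPM (vertical axis, linear and starting at 0, with a separate scale for each gene) of the 10 members in the 4 groups. Points are libraries, the wide bar is the mean and the whiskers are the SD of 3 libraries. All 6 primed libraries lie above all 6 unprimed libraries for IFIH1, STING1, IRF1 and IRF3, the 3 GTA+5-Aza libraries of IRF7 lie below the 3 Con libraries, and the groups of TLR3, MAVS and IRF9 overlap.

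The first question was whether epigenetic priming changed the transcripts of these genes. Averaged over cells without and with CPT, 5 of the 10 members rose (IFIH1, CGAS, STING1, IRF1 and IRF3), 1 fell (IRF7), and 4 did not pass the test (DHX58, TLR3, MAVS and IRF9). The test was edgeR's quasi-likelihood test on 12 libraries, and a call is a Benjamini-Hochberg adjusted p under 0.05 over all genes tested. The background of this comparison is large: 16.8% of all genes tested rose and 14.0% fell. The median log2 fold change of the members was 0.34, against 0.01 over all genes tested, and their median size without sign was 0.46 against 0.19. Where the unadjusted p was under 0.05 and the fold change exceeded 1.5, 3 members were upregulated (IFIH1, STING1 and IRF1) and IRF7 was downregulated, where 7.81% and 1.79% of all genes were. The wording of the study's methods can also be read as a test of the fold against 1.5, and by that reading (glmTreat, unadjusted p under 0.05, run after seeing the data) IFIH1 and STING1, 2 members, were upregulated and 0 downregulated, where 5.16% and 0.783% of all genes were. When libraries were scaled by their total counts alone, 65.4% of all calls were upward in place of 54.5%, and the median of all genes moved to 0.05.

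For 4 of the 10 members (IFIH1, STING1, IRF1 and IRF3) all 6 primed libraries lay above all 6 unprimed libraries, which 8.04% of all genes did. No member had all primed libraries below all unprimed ones, which 6.81% of all genes did.

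IFIH1 encodes MDA5, the helicase that binds long double-stranded RNA (chromosome 2, 162267074 to 162318684, minus strand, GRCh38). Its transcript was rare. It was read at 11, 9 and 5 counts in Con, 12, 6 and 15 in CPT, 24, 25 and 20 in GTA+5-Aza, and 31, 27 and 26 in CPT+GTA+5-Aza. The lowest primed library, at 20 counts, was above the highest unprimed library, at 15. In CPM the means rose from 0.417 ± 0.168 (SD, n = 3) in Con to 1.22 ± 0.0811 in GTA+5-Aza, and from 0.591 ± 0.268 in CPT to 1.59 ± 0.0525 in CPT+GTA+5-Aza. The averaged log2 fold change was 1.48 (SE 0.376, adjusted p = 0.00326 by edgeR's quasi-likelihood test), a 2.80-fold rise with a 95% confidence interval of 1.64 to 4.78. IFIH1 passed the test averaged over CPT under each of the 12 omissions of 1 library. Compared without CPT the adjusted p was 0.0487, and the call was lost in 10 of the 12 omissions, all but those of CPT replicate 2 and CPT replicate 3, with adjusted p from 0.0363 to 0.179.

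DHX58 encodes LGP2, a helicase of the same family without signalling domains that modulates MDA5 and RIG-I (chromosome 17, 42101404 to 42112714, minus strand). Its levels were 3.10, 2.72 and 3.79 CPM in Con, 2.69, 1.97 and 2.73 in CPT, 3.31, 2.81 and 3.22 in GTA+5-Aza, and 3.28, 3.07 and 4.59 in CPT+GTA+5-Aza. The primed libraries overlapped Con and lay above CPT. The averaged log2 fold change was 0.26 with a 95% interval of -0.13 to 0.65 (adjusted p = 0.33, edgeR). With CPT it was 0.56 (interval 0.01 to 1.12, unadjusted p = 0.0481, adjusted p = 0.166), and without CPT it was -0.04.

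TLR3, the endosomal receptor for double-stranded RNA (chromosome 4, 186068911 to 186088073, plus strand), had 4, 3 and 9 counts in Con, 12, 6 and 4 in CPT, 7, 7 and 14 in GTA+5-Aza, and 5, 11 and 6 in CPT+GTA+5-Aza. Every pair of groups overlapped. For this rare transcript the averaged log2 fold change was 0.50, with an interval of -0.57 to 1.58 (adjusted p = 0.512, edgeR). These libraries do not exclude a change within that interval.

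MAVS, the adaptor on mitochondria that receives the signal of MDA5 and RIG-I (chromosome 20, 3846799 to 3876123, plus strand), was abundant and even. Its levels ran from 96.9 to 105 CPM in the 6 primed libraries and from 98.1 to 119 in the 6 unprimed ones. The averaged log2 fold change was -0.06 with an interval of -0.17 to 0.04 (adjusted p = 0.385, edgeR), so the interval held no change larger than 0.17 on the log2 scale.

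CGAS encodes cGAS, the cytosolic DNA sensor (chromosome 6, 73413515 to 73452297, minus strand). Levels were 45.5, 45.5 and 51.2 CPM in Con, 46.8, 40.1 and 47.8 in CPT, 53.0, 49.3 and 52.4 in GTA+5-Aza, and 60.2, 53.0 and 50.9 in CPT+GTA+5-Aza. The primed libraries overlapped Con in part and all lay above CPT. The averaged rise was small, 1.15-fold (log2 fold change 0.20, SE 0.0647, adjusted p = 0.0173, edgeR). It passed the test with CPT (0.29, adjusted p = 0.0311) and not without it (0.12, adjusted p = 0.416), and the difference between these changes, tested as the interaction, was 0.17 (unadjusted p = 0.212). Without CPT+GTA+5-Aza replicate 1, the highest library, the averaged change was 0.17 and the call was lost (adjusted p = 0.0716). The call with CPT was lost without CPT replicate 1 (0.31, adjusted p = 0.0542), CPT replicate 2 (0.21, adjusted p = 0.12), CPT+GTA+5-Aza replicate 1 (0.21, adjusted p = 0.19) or CPT+GTA+5-Aza replicate 2 (0.31, adjusted p = 0.0573).

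STING1, the adaptor that cGAS activates (chromosome 5, 139475533 to 139482935, minus strand), rose most among the members that were read at 10 counts or more in every library. Its levels were 1.47, 2.48 and 1.56 CPM in Con and 0.550, 1.28 and 1.80 in CPT. They were 4.01, 4.16 and 4.63 CPM in GTA+5-Aza and 3.70, 3.63 and 4.16 in CPT+GTA+5-Aza. The lowest primed library, at 3.63 CPM, was above the highest unprimed library, at 2.48. The averaged log2 fold change was 1.43 (SE 0.232, adjusted p = 2.84e-05, edgeR), a 2.70-fold rise with an interval of 1.94 to 3.76. It was the 1 member called by a test against a fold change of 1.5 in place of no change. It passed in both separate comparisons, with log2 fold changes of 1.21 (adjusted p = 0.00883) without CPT and 1.65 (adjusted p = 0.00105) with CPT; the former call was lost without Con replicate 1 (1.07, adjusted p = 0.0508). Between CGAS and STING1, the sensor transcript was thus the more abundant and rose little, and the adaptor transcript rose more.

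IRF1, a factor that itself activates interferon-stimulated genes (chromosome 5, 132440440 to 132508719, minus strand), was at 9.62, 10.8 and 12.7 CPM in Con, 10.1, 12.3 and 13.3 in CPT, 15.3, 18.2 and 20.2 in GTA+5-Aza, and 18.0, 15.2 and 20.3 in CPT+GTA+5-Aza. The primed and unprimed libraries did not overlap. Averaged over CPT, the log2 fold change was 0.64 (SE 0.107, adjusted p = 4.33e-05, edgeR), a 1.56-fold rise, and the values were 0.69 without CPT and 0.58 with CPT. The call with CPT was lost without CPT replicate 1 (0.47, adjusted p = 0.0621) or CPT+GTA+5-Aza replicate 3 (0.48, adjusted p = 0.0621). Exons of IRF1-AS1 on the opposite strand share 2805 bases with IRF1. IRF1-AS1 had at most 33 counts in a library against at least 183 for IRF1, which does not show how many reads fell on the shared bases. Whether the counting used strand is not given in the sources used here, so reads from the shared bases cannot be told apart.

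IRF3, the factor that the kinases downstream of MAVS and STING1 phosphorylate (chromosome 19, 49659569 to 49665875, minus strand), had the smallest p of the members. Its levels were 64.9, 76.1 and 69.7 CPM in Con, 65.3, 82 and 63.3 in CPT, 101, 87.0 and 94.6 in GTA+5-Aza, and 90.0, 88.7 and 101 in CPT+GTA+5-Aza. Every primed library was above every unprimed one, with CPT replicate 2 the nearest to them. Priming changed it by 0.41 on the log2 scale (SE 0.0644, adjusted p = 1.58e-05, edgeR), a 1.33-fold rise, and it was nearly equal without CPT (0.42) and with CPT (0.41). IRF3 shares 734 exon bases, 19.3% of its exon length, with BCL2L12 on the opposite strand, an apoptosis regulator that rose by 0.21 (adjusted p = 0.00945); the part of the shared bases in the rise of IRF3 was not tested.

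IRF7, the factor known for amplifying the interferon response once it has begun (chromosome 11, 612553 to 615983, minus strand), went the other way. Its levels were 3.94, 5.81 and 5.45 CPM in Con, 2.36, 5.46 and 3.55 in CPT, 3.90, 1.40 and 2.60 in GTA+5-Aza, and 3.70, 2.27 and 2.45 in CPT+GTA+5-Aza. GTA+5-Aza lay below Con, if only just at its nearest libraries (3.90 and 3.94), and the groups with CPT overlapped. Its log2 fold change, averaged over CPT, was -0.69 (SE 0.231, adjusted p = 0.0233, edgeR), a level of 0.619 times the unprimed one with an interval of 0.446 to 0.861. The call was lost when any of 5 libraries was left out: Con replicate 2 (-0.64, adjusted p = 0.0535), CPT replicate 2 (-0.51, adjusted p = 0.0743), GTA+5-Aza replicate 2 (-0.54, adjusted p = 0.0714), CPT+GTA+5-Aza replicate 2 (-0.63, adjusted p = 0.0644) or CPT+GTA+5-Aza replicate 3 (-0.65, adjusted p = 0.0567).

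IRF9, the DNA-binding part of the complex that carries the type I interferon signal to chromatin (chromosome 14, 24161234 to 24168043, plus strand), had 11, 17 and 30 counts in Con, 7, 44 and 14 in CPT, 22, 28 and 21 in GTA+5-Aza, and 29, 10 and 14 in CPT+GTA+5-Aza. CPT replicate 2 was the highest of all 12 libraries and CPT replicate 1 the lowest. The averaged log2 fold change was 0.11 with an interval of -0.70 to 0.93 (adjusted p = 0.867, edgeR). The gene model ENSG00000259529 on the same strand shares 1544 bases, 23.9% of the exon length of IRF9, and had 8 to 29 counts, so the split of reads between both is uncertain.

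In the separate comparisons, priming without CPT (GTA+5-Aza against Con) called 4 members higher (IFIH1, STING1, IRF1 and IRF3), where 9.95% of all genes rose, and 1 lower (IRF7, log2 fold change -0.95, adjusted p = 0.0426), where 7.53% fell. Priming with CPT (CPT+GTA+5-Aza against CPT) called 4 higher (CGAS, STING1, IRF1 and IRF3), where 9.57% rose, and no member lower, where 7.39% fell. IFIH1 had almost the same change with CPT (1.42, SE 0.523) as without it (1.54, SE 0.541) and stood on either side of the threshold, with an adjusted p of 0.0609 with CPT by edgeR's quasi-likelihood test and of 0.0293 by DESeq2. IRF7 was at -0.43 with CPT (adjusted p = 0.421). Tested as the interaction, the changes of IRF7 with and without CPT differed by 0.52 (interval -0.43 to 1.47, unadjusted p = 0.275 by edgeR). Its call without CPT was lost when Con replicate 2 (-0.84, adjusted p = 0.124), Con replicate 3 (-0.90, adjusted p = 0.119), GTA+5-Aza replicate 2 (-0.64, adjusted p = 0.205), GTA+5-Aza replicate 3 (-0.94, adjusted p = 0.114) or CPT+GTA+5-Aza replicate 3 (-0.95, adjusted p = 0.0514) was left out.

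**Figure D2:**
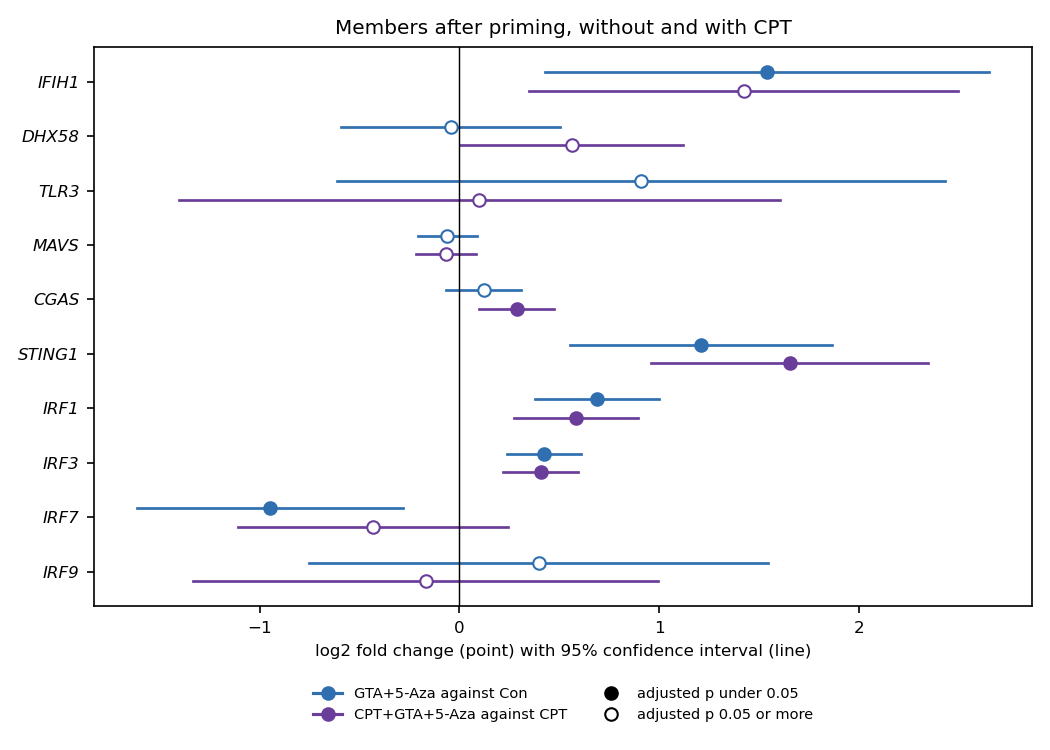
Log2 fold change (horizontal axis) of each member after priming, as GTA+5-Aza against Con and as CPT+GTA+5-Aza against CPT, 3 libraries a group. Points are the fitted changes, lines their 95% confidence intervals, and filled points have an adjusted p under 0.05. STING1, IRF1 and IRF3 are filled and to the right of 0 in both, IRF7 is filled on the left only without CPT, and the intervals of TLR3 and IRF9 are the widest.

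The second question was whether CPT changed these genes, and whether priming altered that. No member passed the test by edgeR's quasi-likelihood test for CPT averaged over priming (0.00584% of all genes did), for CPT against Con (0% of all genes), for CPT+GTA+5-Aza against GTA+5-Aza (0%), or for the interaction (0%). DESeq2 and the likelihood ratio test also called 0 members in each. Of all genes, with each direction counted apart, they called at most 0.0642%. That was DESeq2 for CPT averaged over priming, lower, where it also called 0.0234% higher. No member had an unadjusted p under 0.05 by edgeR. Of all genes, 4.51%, 4.28%, 2.71% and 2.63% did, in the order of comparisons above, so the counts of 0 are near these shares. The smallest unadjusted p of a member was that of STING1 for CPT in unprimed cells (0.098 by edgeR's quasi-likelihood test). Its log2 fold change was -0.60 with an interval of -1.32 to 0.12. Its mean was 1.84 ± 0.558 CPM in Con and 1.21 ± 0.629 in CPT (SD, n = 3).

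The intervals give the changes that these libraries do not exclude. For CPT averaged over priming, the abundant genes were bounded closely: the 95% interval of the log2 fold change ran from -0.14 to 0.12 for IRF3, from -0.13 to 0.14 for CGAS and from -0.14 to 0.07 for MAVS. It ran from -0.17 to 0.27 for IRF1 (change 0.05) and from -0.47 to 0.31 for DHX58 (-0.08). For the rare transcripts it stayed wide, from -0.34 to 1.21 for IFIH1 (0.44), from -0.85 to 0.10 for STING1 (-0.38), from -0.63 to 0.32 for IRF7 (-0.16), from -0.88 to 0.76 for IRF9 (-0.06) and from -0.92 to 1.21 for TLR3 (0.14). The width of an interval does not say how large a change the test could have called.

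In unprimed cells the CPT changes of the other members ran from -0.41 (IRF7) to 0.55 (TLR3), and in primed cells all 10 ran from -0.34 (IRF9) to 0.38 (IFIH1). The interaction, the change with CPT in primed cells minus that in unprimed cells, ran from -0.81 (TLR3, SE 1.04) to 0.61 (DHX58, SE 0.381). DHX58 also had its smallest p (unadjusted p = 0.123 by edgeR). DHX58 means were 3.20 ± 0.545 CPM in Con and 2.46 ± 0.430 in CPT, and 3.11 ± 0.270 in GTA+5-Aza and 3.64 ± 0.828 in CPT+GTA+5-Aza. Its mean was thus lower with CPT in unprimed cells and higher with CPT in primed cells, and neither difference passed the test. For IRF3 the 4 means fell into pairs, 70.2 ± 5.58 and 70.2 ± 10.3 CPM in Con and CPT against 94.2 ± 7.05 and 93.2 ± 6.63 in GTA+5-Aza and CPT+GTA+5-Aza.

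**Figure D3:**
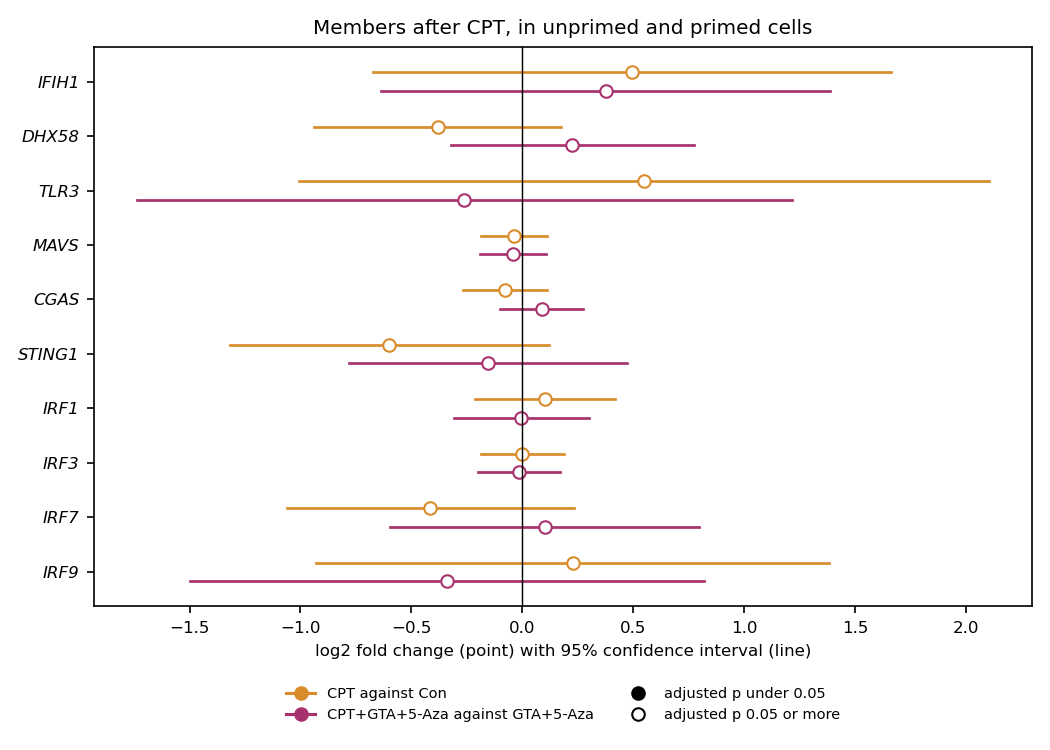
Log2 fold change (horizontal axis) of each member with CPT, as CPT against Con (unprimed) and as CPT+GTA+5-Aza against GTA+5-Aza (primed), 3 libraries a group. Points are the fitted changes and lines their 95% confidence intervals; no point is filled, since no adjusted p was under 0.05, and every interval holds 0.

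The other genes of the pathway were read from a list of 63, of which 47 were tested. With priming, averaged over CPT, 18 rose and 2 fell, where 16.8% of all genes tested rose and 14.0% fell, and the median log2 fold change was 0.17 against 0.01 over all genes. The genes that rose with the smallest p were TRIM25 (0.29), the ligase that activates RIG-I, IRF2BPL (0.50), DNASE2 (0.47), the lysosomal nuclease that removes DNA, NLRC5 (1.23), and IRF5 (0.64). Those that fell were EIF2AK2 (-0.18), the kinase PKR that double-stranded RNA activates, and UNC93B1 (-0.22), the chaperone that brings TLR3 to endosomes. RIGI, the sensor of short double-stranded RNA, rose by 0.57 (SE 0.137, adjusted p = 0.00203, edgeR), from 8.82 ± 2.00 CPM in Con to 13.9 ± 2.14 in GTA+5-Aza.

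By listed role, 2 of 7 other genes placed with the sensors rose (RIGI and NLRC5) and 1 fell (EIF2AK2). Of 11 adaptors and kinases 4 rose and 1 fell, and 5 of 9 nucleases and editors that limit the ligands rose. Of 5 other IRF genes tested 2 rose, of 6 interferon receptors tested 4 rose, and of 9 signal transducers and feedback genes 1 rose. Groups this small were not tested against the shares over all genes (16.8% higher and 14.0% lower), and counts of 1 gene are near them. The kinase gene TBK1, which links both adaptors to IRF3, was at -0.03 (adjusted p = 0.771). CPT averaged over priming called 0 of the 47 by edgeR (0.00584% of all genes), with 2 at an unadjusted p under 0.05, where 4.51% of all genes were.

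Interferon transcripts themselves were at or near 0. IFNB1, IFNA1, IFNE, IFNK and IFNL2 had 0 counts in each of the 12 libraries, and IFNL1 and IFNL3 had at most 2 and 1 counts in a library, all of them in GTA+5-Aza. A count of 0 allows up to 3 counts, so interferon transcription below that depth was not detectable. Of 30 listed interferon-stimulated genes 24 were tested, and 16 rose with priming and none fell, where 16.8% of all genes rose and 14.0% fell. Their median log2 fold change was 0.62, against 0.01 over all genes. Those with the smallest p were IFIT2 (0.71), IFIT3 (0.91), OASL (1.41), ISG15 (0.65) and OAS3 (1.04). With CPT averaged over priming, 0 of the 24 were called by edgeR (0.00584% of all genes), and 2 had an unadjusted p under 0.05, as 4.51% of all genes did.

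**Figure D4:**
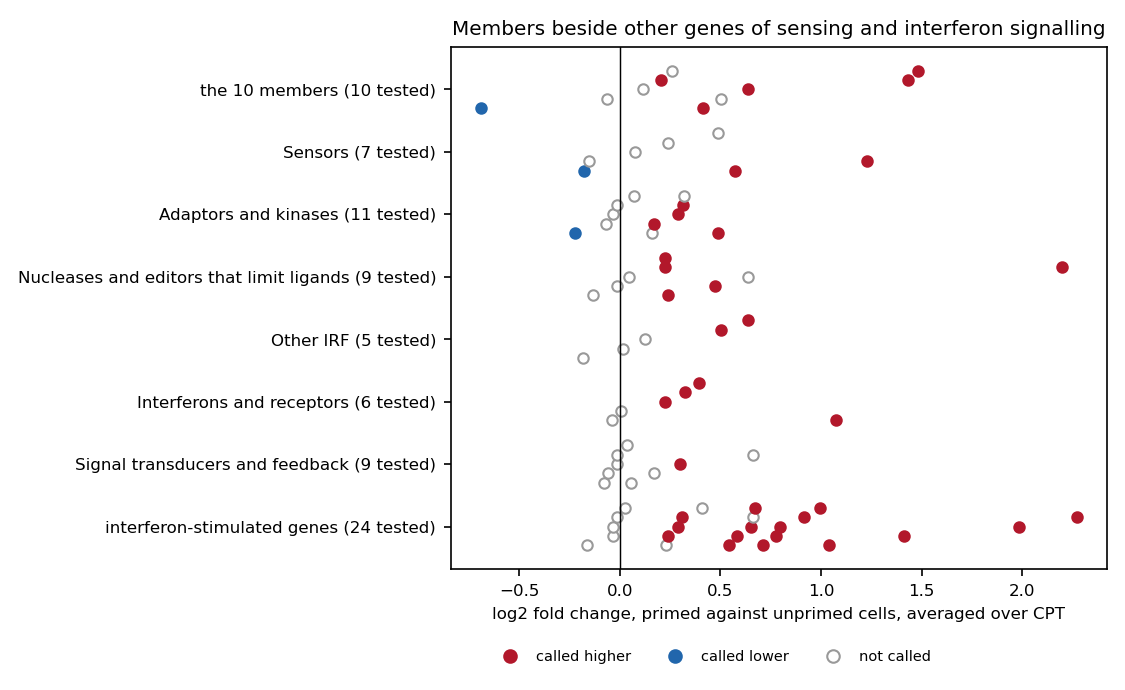
Log2 fold change with priming averaged over CPT (horizontal axis) of the 10 members, of the other listed genes by role, and of listed interferon-stimulated genes; each point is 1 gene fitted on 12 libraries, with a small vertical offset that has no meaning. Red points were called higher, blue points lower, and open points were not called; 16 of 24 interferon-stimulated genes are red, and IRF7 is the point farthest to the left.

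Genes that ran most like IRF3, the called member with the smallest p, were ranked by the root mean square difference of log2 CPM centred on each gene's mean, over the 12 libraries. The nearest were LRP10 (0.0555), CBX6 (0.0563) and CACNG8 (0.0618), and the median over all genes tested was 0.329. The nearest genes lie below the median by the way they were picked, so that contrast is no measure of likeness. These are descriptions of shared level changes across the same libraries, which also share depth.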

How the data were processed

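RNA was measured by 150 base-pair paired-end RNA-seq in 12 MiaPaca2 libraries, 3 in each of 4 groups taken from the labels. Reads were trimmed by the authors (Trim Galore) and mapped with HISAT2 2.2.1 on GRCh38, and raw HTSeq counts per gene were deposited; the annotation release and strand setting are not given in the sources used here. Of 63677 identifiers, 52181 are in GENCODE v44. The analysis used edgeR 4.0.16 (R 4.3.3). Its filterByExpr kept 17123 genes, libraries were scaled by TMM, and glmQLFit and glmQLFTest were run on all 12 libraries in 1 fit, two-sided, with Benjamini-Hochberg adjustment over all genes tested. CPM used TMM-scaled library sizes. The script was tested on simulated data. Alternatives were DESeq2 1.42.0, other tests, scalings, filters and samples in the fit, a replicate block, and the omission of each library.

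The 10 members, the gene lists and the comparisons were chosen with earlier results of these data known. All members are described; of each list at most 5 called genes per direction with the smallest p are named, plus RIGI and the interferon genes; TBK1, the markers and overlapping genes were named besides, with values seen. Same-numbered replicates correlated above 0.1 in 3 of 18 pairs, so numbers were not used for pairing. Correlations ran from -0.377 to 0.42 in same-numbered pairs and from -0.383 to 0.366 in other pairs. A factor that libraries of different groups share apart from their numbers was not modelled or tested. Protein sequences were not analysed here.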

Additional observations from a re-analysis of the deposited data

How the results depend on the processing

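No member that passed the test changed direction under any alternative. Of 1426 alternative values for 70 member changes, 1305 kept both the direction and the side of the threshold, and of 288 alternative values for 14 counts of members called, 246 equalled the reported count. When edgeR's glmTreat required a fold above 1.5, 1 member rose with priming averaged over CPT (5 in the report) and 0 fell (1), 0 rose (4) and 0 fell (1) without CPT, and 1 rose with CPT (4). Of all genes, glmTreat called 2.16% higher and 0.164% lower averaged over CPT, 1.19% and 0.0759% without CPT, and 1.18% higher with CPT. The count over all genes dropped too, from 2879 higher and 2404 lower to 370 and 28 for priming averaged over CPT, and to 1337 and 306 by the rule of fold above 1.5 with unadjusted p under 0.05. By glmTreat with an unadjusted p under 0.05, a reading added after seeing the data, 2 members rose and 0 fell with priming averaged over CPT. Of all genes, 5.16% rose and 0.783% fell by that reading. With library size alone 0 members fell without CPT (IRF7, adjusted p = 0.0558), where 5.3% of all genes fell. The call of IFIH1 without CPT was lost in 5 of 8 alternatives that kept all its libraries (glmTreat, RLE scaling, no filter, only the 2 groups in the fit and the replicate block), and that of CGAS with CPT with glmTreat and in the fit of its 2 groups alone (adjusted p = 0.0629). With a minimum mean of 1 CPM, IFIH1 and TLR3 were not tested. The replicate block was tried although the labels share only a number. It gave 0 members lower without CPT (IRF7, -0.96, adjusted p = 0.054), where 7.17% of all genes were lower. The block moved no other count by over 1.5 times. All genes called with it for priming averaged over CPT were 2847 higher and 2333 lower. Of 18 same-numbered pairs 3 correlated above 0.1, and of 36 other pairs 9 did.

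With 1 library left out, the members called with priming averaged over CPT ranged from 4 to 5 higher and from 0 to 1 lower. Over the same omissions 14.7% to 18.7% of all genes tested rose and 12% to 16.6% fell. Without CPT 2 to 4 members were higher and 0 to 1 lower, where 6.45% to 11.6% of all genes rose and 4.82% to 9.68% fell. With CPT 2 to 4 members were higher, where 6.69% to 12% of all genes rose. Changes that passed no test turned sign in some omissions. For priming averaged over CPT the log2 fold change ranged from -0.12 to 0.58 for IRF9. For priming without CPT the log2 fold change ranged from -0.15 to 0.093 for DHX58 and -0.11 to 0.028 for MAVS. For priming with CPT the log2 fold change ranged from -0.31 to 0.68 for TLR3 and -0.64 to 0.77 for IRF9. For CPT averaged over priming the log2 fold change ranged from -0.15 to 0.43 for TLR3, -0.059 to 0.0062 for MAVS, -0.033 to 0.042 for CGAS, -0.0029 to 0.11 for IRF1, -0.072 to 0.027 for IRF3, -0.34 to 0.044 for IRF7 and -0.53 to 0.17 for IRF9. For CPT in unprimed cells the log2 fold change ranged from -0.032 to 1.12 for TLR3, -0.078 to 0.053 for MAVS, -0.13 to 0.069 for IRF3 and -0.72 to 0.67 for IRF9. For CPT in primed cells the log2 fold change ranged from -0.67 to 0.20 for TLR3, -0.11 to 0.10 for IRF1, -0.076 to 0.038 for IRF3 and -0.21 to 0.50 for IRF7. For the interaction the log2 fold change ranged from -0.45 to 0.19 for IFIH1, -0.095 to 0.037 for MAVS, -0.085 to 0.11 for IRF3 and -1.04 to 0.38 for IRF9. The change of IRF3 with CPT in unprimed cells, 4.6e-05, also turned to -7.3e-05 in the likelihood ratio test, -0.0023 with library size alone, -0.00091 with a minimum mean of 1 CPM, -0.00068 with only the 2 groups in the fit and -0.0012 with the replicate block, which also put IRF1 with CPT in primed cells at 0.00020. The cause was not tested for any of these. Counts per library were as few as 3 (TLR3), 5 (IFIH1) and 7 (IRF9), and those of IRF9 ran from 7 to 44 within CPT; the part of depth in these changes was not tested.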
